A study of Mus musculus with 6 samples.

Results

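Splicing factors and nuclear RNA-binding proteins were followed in the translatome of the skeletal muscle microvascular endothelium of mice treated with vehicle or 17β-estradiol (E2). The genes were taken from the table of counts by a rule on their symbols, which was written with earlier results of these libraries known. They are all genes whose symbol begins with Hnrnp, Srsf, Sf3a, Sf3b, Prpf, Snrnp, Snrp or Luc7l, or with Rbm followed by a digit, and 14 further genes listed one by one in the rule. These are Safb, Safb2, Tra2a, Tra2b, Srrm1, Srrm2, Son, U2af1, U2af2, Upf1, Upf2, Ddx5, Ddx17 and Acin1. The rule gave 130 of 24062 genes, of which 123 had a count in any library and 7 (Rbm31y, Rbm44, Rbm46, Rbm46os, Snrnp40, Snrpg and Srsf12) were at 0 in all 6 libraries. By family there were 20 hnRNP, 11 SR protein, 9 SF3, 13 PRP, 19 snRNP, 3 LUC7-like and 41 RBM genes, besides the 14 listed ones.

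The mice were GFP-L10a EC mice, described as female, in which a Rosa26 allele with a floxed stop codon before GFP-Rpl10a is opened by VECad-Cre, so that endothelial cells carry ribosomes with a GFP tag. All of them, vehicle controls included, were described as ovariectomized at 6 weeks of age and then carried a placebo pellet or an E2 pellet releasing 6 µg per day over 4 weeks, whereas the sample labels give an age of 4 weeks. Translating ribosome affinity purification (TRAP) with an anti-GFP antibody was done on gastrocnemius and soleus, and the TRAP RNA was sequenced in 3 vehicle and 3 E2 libraries. A library label names 2 mice, and whether their RNA was pooled is not stated there or in the paper. VECad-Cre also acts in cells that descend from embryonic endothelium, which limits what the tag marks.

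Pre-messenger RNA is spliced in the nucleus by the spliceosome, which is assembled from small nuclear ribonucleoproteins (snRNPs) and many further proteins. The U1 and U2 snRNPs mark the ends of the intron, SF3A and SF3B hold U2 on the branch point, and the PRP factors take part in assembly and catalysis. SR proteins mostly promote the use of an exon, hnRNPs often repress it, and the many RBM proteins, named only for an RNA-binding motif, act in splicing, stability and translation. Transcripts of SR proteins and hnRNPs are themselves spliced in alternative ways, and isoforms with a premature stop codon are removed by nonsense-mediated decay, in which Upf1 and Upf2 act.

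The counts on genes summed to between 84823 (vehicle replicate 3) and 451034 (vehicle replicate 2) per library, and the ribosomal RNA gene Rn45s took 28.5% to 42.9% of them. In vehicle replicate 3, a single count is 11.8 CPM (counts scaled to a common library total), and a count of 0 allows up to 35.4 CPM. Vehicle replicates 1 and 2 stood apart: 4 Y-linked genes had 40 and 63 counts there and 0 in the other 4 libraries, although all mice were described as female. Xist, the RNA of the inactive X chromosome, had 1, 1 and 3 counts with vehicle and 6, 17 and 9 with E2. In CPM these were 3.46, 2.22 and 35.4 with vehicle and 47.6, 85.6 and 44.8 with E2, so vehicle replicate 3 was nearer to the E2 libraries. Over the 36 genes tested below, vehicle replicates 1 and 2 correlated with a Pearson's r of 0.968 on the log2(CPM + 1) scale. With these, vehicle replicate 3 correlated at 0.317 and 0.318, and with the E2 libraries at 0.560 to 0.759, across genes that are not independent replicates. The results are therefore given below with all libraries, without vehicle replicate 3 and without vehicle replicates 1 and 2. Each of the 14 endothelial markers had a count in some library, and their summed level was 834, 902 and 259 CPM with vehicle and 143, 373 and 642 CPM with E2. Kdr, the VEGF receptor, had 93, 118 and 0 counts with vehicle and 2, 10 and 10 with E2. Cdh5, the VE-cadherin gene, had 54, 131 and 14 counts with vehicle and 6, 37 and 75 with E2, with a log2 fold change of 0.13 (adjusted p = 0.906), and the summed markers overlapped between the groups. Skeletal muscle fiber markers, all 14 with a count, summed to more than the endothelial markers in every library, with 51280 to 90570 CPM with vehicle and 39550 to 47900 CPM with E2, and their part in the results below was not tested. For any gene, a difference in the number of cells that carry it and in its RNA per cell cannot be told apart in these libraries.

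Of the 130 genes, 36 passed the filter on low counts and were tested for E2 against vehicle by the quasi-likelihood method of edgeR, with p-values adjusted after Benjamini and Hochberg over all 1682 genes tested. At an adjusted p below 0.05, 6 had a lower level in TRAP RNA with E2 (Safb, Sf3b2, Hnrnpul2, Hnrnpu, Srsf11 and Hnrnph3), beside 2.97% of all genes tested, and 1 (Rbm3os, a noncoding antisense RNA) had a higher level, beside 2.5%. At an unadjusted p of 0.05 or less, 15 (41.7% of the 36) were lower, beside 15.1% of all genes tested, and 3 (8.33%) were higher, beside 10.5%. The log2 fold change (E2 over vehicle) was below 0 for 27 and above 0 for 9 of them, with a median of -0.88 beside 0.005 over all genes tested. Among all 123 genes with a count, every E2 library lay below every vehicle library for 23 (18.7%), beside 6.11% of the 14057 genes with a count, and above for 4 (3.25%), beside 4.39%. The filter asked for 50.1 CPM in 3 libraries. All vehicle libraries but fewer than 3 E2 libraries reached it for 12 genes (Hnrnpul2, Hnrnpu, Hnrnph3, Srsf11, Safb, Safb2, Srrm1, Srrm2, Prpf8, Rbm24, Rbm25 and Rbm4b), whose place in the test therefore came from the vehicle group, and 5 of the 6 lower genes were among them, Sf3b2 being the exception. For Hnrnpu, Hnrnph3, Safb and Safb2 no E2 library reached it, so their observed level had to be lower with E2. The reverse, all E2 libraries but fewer than 3 vehicle libraries, held for 3 genes (Hnrnpa3, Rbm33 and Rbm18). Without the filter, the 6 lower genes were all among the 8 then called, beside 132 of the 14057 genes tested. The genes were chosen with results of these libraries known, so these shares are descriptions and support nothing.

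**Figure D1:**
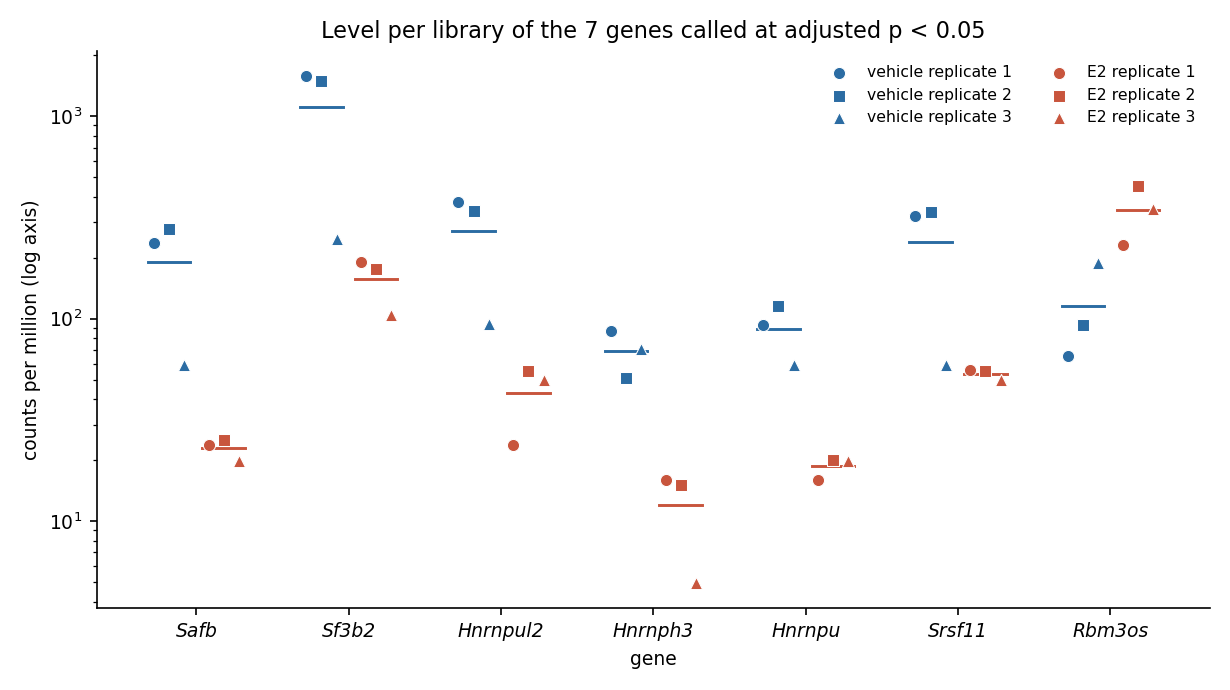
Level in CPM (log axis) of the 7 genes called at an adjusted p below 0.05, in the 3 vehicle (blue) and 3 E2 (red) libraries, with the group means as lines. For Safb, Sf3b2, Hnrnpul2 and Srsf11, vehicle replicate 3 (blue triangle) sits close to the E2 libraries and far below the other vehicle libraries. For Hnrnpu and Hnrnph3 all vehicle libraries sit above 50 CPM and all E2 libraries at or below 20.2 CPM. Both genes entered the test only because all vehicle libraries reached the 50.1 CPM of the filter, with 5 and 6 counts in vehicle replicate 3.

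Safb (ENSMUSG00000071054.12), scaffold attachment factor B, binds nuclear matrix DNA and RNA and is known as a corepressor of the estrogen receptor. It lies on the plus strand of chromosome 17 of mm10, from 56584825 to 56606294. Safb had 68, 125 and 5 counts with vehicle (235, 277 and 59.0 CPM) and 3, 5 and 4 counts with E2 (23.8, 25.2 and 19.9 CPM). All vehicle libraries lay above all E2 libraries, but vehicle replicate 3 was several times lower than the other vehicle libraries. Its 5 counts have a 95% Poisson interval, which covers counting error only, of 19.1 to 138 CPM, which contains each E2 level. The level fell from 191 ± 116 CPM (SD, n = 3) to 23.0 ± 2.74 CPM (SD, n = 3), and the log2 fold change was -2.98 ± 0.57 (standard error, SE) with an adjusted p = 0.0103 in edgeR. Safb2 (ENSMUSG00000042625.16), its paralog with the same kinds of function, lies head to head with it on the minus strand from 56560965 to 56584585, with 239 bases between both gene starts. It had 90.0, 73.2 and 59.0 CPM with vehicle and 39.7, 20.2 and 24.9 CPM with E2. Its groups did not overlap, and the log2 fold change of -1.34 (standard error 0.53) did not pass the adjustment (adjusted p = 0.125 in edgeR's test). Of the 75-base windows of their transcripts, 13.0% of Safb and 12.4% of Safb2 also occur in another gene, so a few reads of the pair may be misplaced.

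Sf3b2 (ENSMUSG00000024853.10), a subunit of the SF3B complex that holds the U2 snRNP on the branch point, lies on the minus strand of chromosome 19 from 5273932 to 5295455. It had 456, 672 and 21 counts with vehicle (1579, 1490 and 248 CPM) and 24, 35 and 21 counts with E2 (191, 176 and 105 CPM). The vehicle libraries again lay above the E2 libraries, and vehicle replicate 3 was much closer to the latter. The level fell from 1105 ± 744 CPM to 157 ± 46.2 CPM (SD, n = 3 each), with a log2 fold change of -2.72 ± 0.59 (SE, adjusted p = 0.0183 in edgeR's test). Per transcript length, Sf3b2 was the first of the 36 genes with vehicle (mean RPKM of 343, reads per kilobase of transcript scaled to library total) and the ninth with E2 (48.8), but its vehicle mean was carried by vehicle replicates 1 and 2, and vehicle replicate 3 had an RPKM of 76.8.

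Among the hnRNPs, Hnrnpul2 (ENSMUSG00000071659.4, chromosome 19, 8820010 to 8834143, plus strand), a homolog of Hnrnpu, had 377, 339 and 94.3 CPM with vehicle and 23.8, 55.4 and 49.8 CPM with E2. Its log2 fold change was -2.51 ± 0.55 (SE, adjusted p = 0.0183 in edgeR's test). Hnrnpu (ENSMUSG00000039630.10, chromosome 1, 178321108 to 178337797, minus strand), which binds nuclear scaffold and chromatin-associated RNA, had 93.5, 115 and 59.0 CPM with vehicle and 15.9, 20.2 and 19.9 CPM with E2. Here vehicle replicate 3 was nearer to the other vehicle libraries, and the log2 fold change was -2.15 ± 0.53 (SE, adjusted p = 0.0318 in edgeR's test). Hnrnph3 (ENSMUSG00000020069.16, chromosome 10, 63014664 to 63024217, minus strand), of the group that binds G-rich RNA, had 86.6, 51.0 and 70.7 CPM with vehicle and 15.9, 15.1 and 4.98 CPM with E2. Vehicle replicate 3 lay between the other vehicle libraries, and the log2 fold change was -2.40 ± 0.69 (SE, adjusted p = 0.0491 in edgeR's test). Hnrnph3 was not tested when Rn45s was left out, and DESeq2 gave it no adjusted p. The values of Hnrnpu and Hnrnph3 rest on few counts: Hnrnpu had 5 and Hnrnph3 had 6 counts in vehicle replicate 3, and neither had more than 4 in any E2 library.

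Srsf11 (ENSMUSG00000055436.18, chromosome 3, 158010473 to 158036639, minus strand), an SR-related protein, had 322, 337 and 59.0 CPM with vehicle and 55.6, 55.4 and 49.8 CPM with E2. Its E2 libraries were close to each other, and vehicle replicate 3, with 5 counts, exceeded the highest of them by less than the worth of a single count. The log2 fold change was -2.09 ± 0.55 (SE, adjusted p = 0.0376 in edgeR's test). Rbm3os (ENSMUSG00000055188.12, chromosome X, 8145429 to 8147964, plus strand), annotated as an antisense RNA of the cold-inducible gene Rbm3, went the other way. It had 65.8, 93.1 and 189 CPM with vehicle and 230, 453 and 348 CPM with E2, with vehicle replicate 3 the highest vehicle library. The log2 fold change was 1.81 ± 0.50 (SE, adjusted p = 0.0440 in edgeR's test).

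The 7 calls depended on the libraries used. Without any E2 library in turn, none of them passed the adjustment, with an adjusted p in edgeR's test of 0.0545 to 0.0942 for Safb, 0.0737 to 0.132 for Sf3b2 and 0.0841 to 0.216 for the other 5. At an unadjusted p of 0.05 or less, 13, 11 and 15 of the genes were lower without E2 replicates 1, 2 and 3, beside 11.7%, 9.18% and 13.5% of all genes tested, and 1, 2 and 4 were higher, beside 8.82%, 7.74% and 8.37%. Without vehicle replicate 1, Safb (adjusted p = 0.0223 in edgeR's test) and Sf3b2 (0.0438) passed, and without vehicle replicate 2 these (0.0170 and 0.0159) and Hnrnpul2 (0.0201). In these fits 6 and 11 of all 1940 and 1897 genes tested were lower, and 7 and 9 higher, at the adjusted p. Without vehicle replicate 3, all 7 passed, with an adjusted p in edgeR's test between 2.62e-07 for Sf3b2 and 0.00632 for Hnrnph3. In that fit 24.3% of all genes tested were lower and 22.1% higher at the adjusted p.

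E2 acts through a receptor that binds a known DNA element, so the promoters of the called genes were searched for it, and those that hold an arm of it are printed. Windows of 300 bases, 250 before to 50 after the start, were taken from RefSeq (GRCm38.p6), which matched 110 of the 130 genes and not Hnrnpul2. They are printed 5′ to 3′ on the strand of the gene, in lower case with the GGTCA arm of the estrogen response element, or its reverse complement TGACC, in capitals. The window of Safb is chr17:56584732-56585031 (plus strand), that of Sf3b2 is chr19:5295408-5295707 (minus strand), that of Srsf11 is chr3:158036557-158036856 (minus strand) and that of Rbm3os is chrX:8145177-8145476 (plus strand).
Safb: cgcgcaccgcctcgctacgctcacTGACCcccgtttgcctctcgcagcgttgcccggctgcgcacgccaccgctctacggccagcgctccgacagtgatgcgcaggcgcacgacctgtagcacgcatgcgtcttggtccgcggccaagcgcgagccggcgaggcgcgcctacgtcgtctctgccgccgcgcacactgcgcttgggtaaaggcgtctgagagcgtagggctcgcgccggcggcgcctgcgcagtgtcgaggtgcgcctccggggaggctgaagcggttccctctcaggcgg
Sf3b2: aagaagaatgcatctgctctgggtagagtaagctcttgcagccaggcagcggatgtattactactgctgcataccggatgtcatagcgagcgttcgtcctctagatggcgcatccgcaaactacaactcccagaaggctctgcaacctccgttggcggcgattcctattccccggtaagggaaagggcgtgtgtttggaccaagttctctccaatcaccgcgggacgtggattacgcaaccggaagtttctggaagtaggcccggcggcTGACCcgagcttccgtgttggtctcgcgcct
Srsf11: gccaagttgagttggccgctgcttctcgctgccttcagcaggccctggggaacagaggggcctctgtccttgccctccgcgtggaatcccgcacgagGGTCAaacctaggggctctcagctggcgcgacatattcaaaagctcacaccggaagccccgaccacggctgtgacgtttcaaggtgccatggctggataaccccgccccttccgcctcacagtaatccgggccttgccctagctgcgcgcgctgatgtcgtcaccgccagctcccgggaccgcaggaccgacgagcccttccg
Rbm3os: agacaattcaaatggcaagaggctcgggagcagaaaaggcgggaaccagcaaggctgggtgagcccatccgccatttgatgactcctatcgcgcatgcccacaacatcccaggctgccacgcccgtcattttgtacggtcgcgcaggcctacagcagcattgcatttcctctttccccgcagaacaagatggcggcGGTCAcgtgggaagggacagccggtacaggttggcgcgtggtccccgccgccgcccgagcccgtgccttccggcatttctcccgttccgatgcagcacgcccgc

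Each of these 4 windows holds the arm 1 time, and the windows of Hnrnpu and Hnrnph3 do not hold it. The arm was found on either strand in 40.0% of the 110 windows, beside 40.2% of all 27025 windows of that length. The full element, GGTCA and TGACC with NNN between them, was in 0 of the 110 windows and in 0.0666% of all windows. Among other elements, the GC box GGGCGG (either strand) was in 60.9% of them beside 35.9% of all, the CCAAT box (CCAAT) in 43.6% beside 37.9%, and TATAAA in 10.9% beside 14.2%. The median window held 24 CpG sites beside 7 over all windows, and its GC content was 60.0% beside 52.7%. The windows of Safb and Safb2 share 104 bases. A match of letters is a description of the window and not a binding site, and motifs were not tested against the fold changes.

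**Figure D2:**
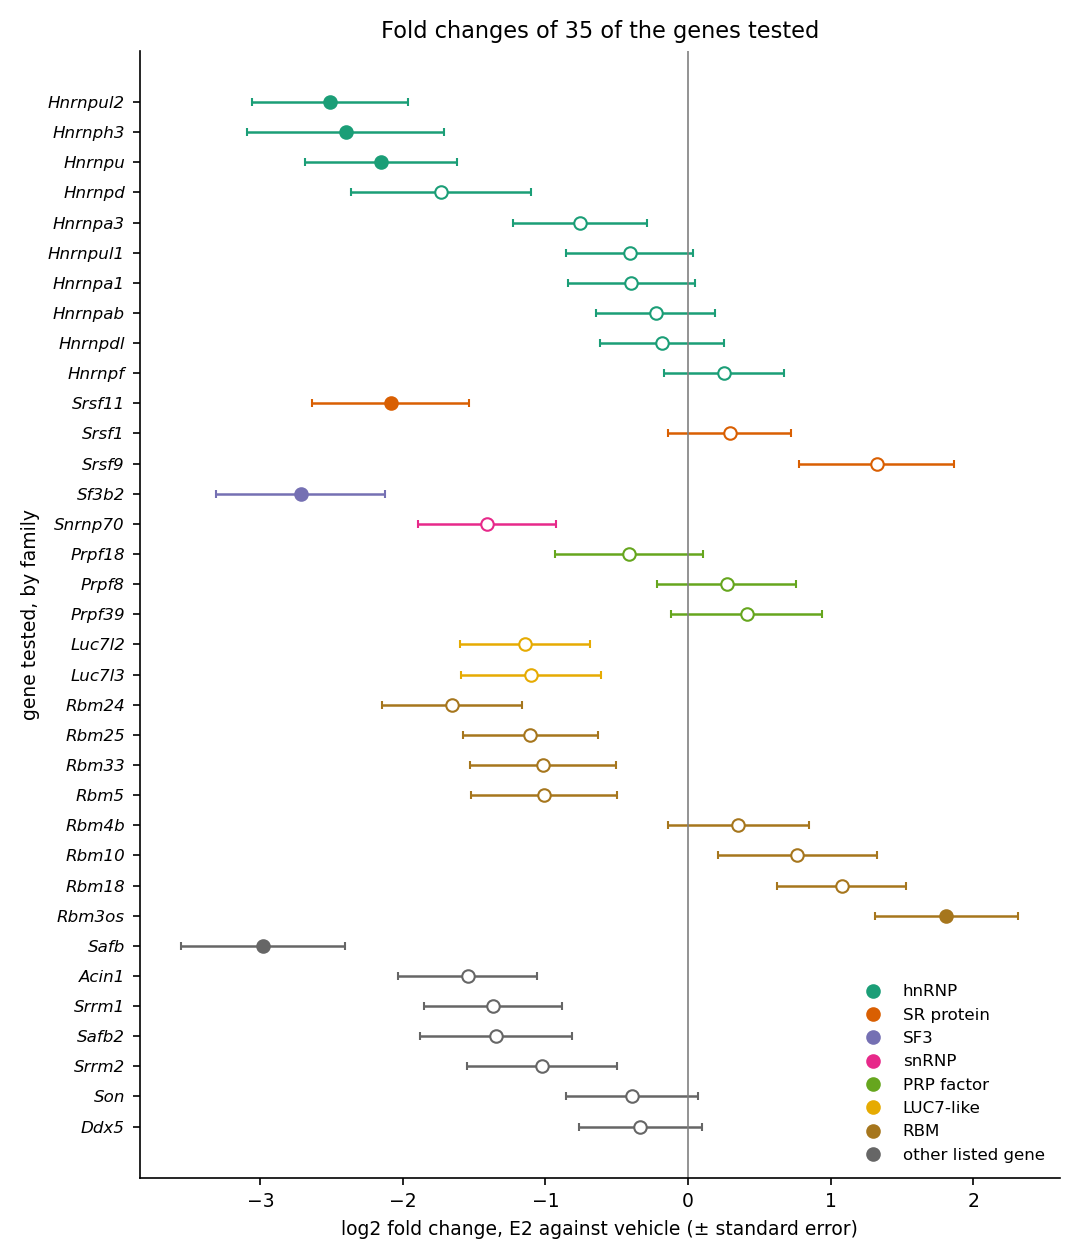
Log2 fold change of E2 against vehicle (points, with standard errors as bars) for 35 of the 36 genes tested, grouped and coloured by family. Filled points passed an adjusted p below 0.05, and the hnRNP, SF3, snRNP and LUC7-like genes and the other listed genes lie left of 0 except Hnrnpf, whereas the SR protein, PRP and RBM genes lie on both sides.

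All 20 hnRNP genes had a count, and 10 were tested. Of these, 4 were lower and 0 higher at an unadjusted p of 0.05 or less, beside 15.1% and 10.5% of all genes tested, and the median log2 fold change was -0.58. Besides the 3 called genes this was Hnrnpd, which binds AU-rich RNA, with 239, 279 and 11.8 CPM with vehicle and 23.8, 60.4 and 64.7 CPM with E2. Vehicle replicate 3 lay below every E2 library here, with 1 count, and the log2 fold change was -1.73 ± 0.63 (SE, adjusted p = 0.0997 in edgeR's test). The abundant splicing repressor Hnrnpa1 had 135, 180 and 189 CPM with vehicle and 79.4, 116 and 139 CPM with E2, with groups that overlapped and a log2 fold change of -0.40 ± 0.44 (SE, adjusted p = 0.611). Hnrnpf, a G-tract binding protein, had 132, 195 and 142 CPM with vehicle and 151, 227 and 139 CPM with E2, and its log2 fold change was 0.25 ± 0.42 (SE, adjusted p = 0.751). A large part of the transcript windows of Hnrnpa1 (44.4%) and Hnrnpf (46.4%) also occurs in other genes, mostly pseudogenes, so their counts are uncertain. Summed over the family, the level was 1849, 1909 and 1061 CPM with vehicle and 770, 942 and 851 CPM with E2, without overlap of the groups.

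SR proteins showed both directions. Of 11 genes 10 had a count and 3 were tested, with Srsf11 lower, Srsf9 higher at an unadjusted p and Srsf1 close to 0. Of all genes tested, 15.1% were lower and 10.5% higher at an unadjusted p of 0.05 or less. Srsf1, which promotes exon inclusion and has further roles in the cytoplasm, had 76.2, 82.0 and 70.7 CPM with vehicle and 111, 70.5 and 79.6 CPM with E2 (log2 fold change 0.29 ± 0.43, SE, adjusted p = 0.715). Srsf9, another exon-binding SR protein, had 27.7, 22.2 and 59.0 CPM with vehicle and 87.4, 80.6 and 44.8 CPM with E2. Vehicle replicate 3 was above the lowest E2 library, and the log2 fold change was 1.32 ± 0.55 (SE, adjusted p = 0.133 in edgeR's test). Srsf4 and Srsf5, too low to be tested with all libraries, had 69.2 and 122 CPM and 83.1 and 113 CPM in vehicle replicates 1 and 2. They had 11.8 and 0 CPM in vehicle replicate 3 and at most 40.3 and 19.9 CPM with E2.

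Of the SF3 genes, all 9 had a count and Sf3b2 was the only one tested. It held 91.0% and 91.9% of the counts of the family in vehicle replicates 1 and 2, 63.6% in vehicle replicate 3 and 45.7% to 72.7% in the E2 libraries. Without Sf3b2, the family summed to 156, 131 and 141 CPM with vehicle and 71.5, 106 and 124 CPM with E2. None of these other genes was tested, and the sum in vehicle replicate 3 rests on 12 counts. Sf3b1, the branch point subunit often mutated in blood disorders, had 10, 19 and 7 counts with vehicle and 2, 6 and 6 with E2, and vehicle replicate 3 was the highest library in CPM (82.5). Sf3a1, of the SF3A complex, had 18, 15 and 2 counts with vehicle and 2, 1 and 7 with E2.

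Among the snRNP genes, 17 of 19 had a count and only Snrnp70, the U1 protein that helps to define the splice donor, was tested. It had 291, 284 and 94.3 CPM with vehicle and 63.5, 111 and 64.7 CPM with E2, so that vehicle replicate 3 lay within the range of the E2 libraries. The log2 fold change was -1.41 ± 0.48 (SE, adjusted p = 0.0822 in edgeR's test). Snrnp27, of the tri-snRNP, had 87, 74 and 4 counts with vehicle and 2, 9 and 5 with E2, without overlap in CPM. Snrnp200, the helicase that unwinds U4 from U6, had 21, 31 and 2 counts with vehicle and 2, 6 and 2 with E2. Snrpa, of the U1 snRNP, went the other way, with 10, 12 and 0 counts with vehicle and 8, 22 and 9 with E2 (34.6, 26.6 and 0 against 63.5, 111 and 44.8 CPM). The LUC7-like proteins are also tied to U1. Luc7l2 had 447, 486 and 236 CPM with vehicle and 206, 176 and 114 CPM with E2, with a log2 fold change of -1.14 ± 0.46 (SE, adjusted p = 0.127), and the groups did not overlap. Luc7l3 had 426, 497 and 130 CPM with vehicle and 135, 171 and 149 CPM with E2, with vehicle replicate 3 below all E2 libraries (log2 fold change -1.10 ± 0.49, SE, adjusted p = 0.163). Luc7l had 5, 16 and 0 counts with vehicle and 1, 5 and 1 with E2.

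None of the 4 PRP genes tested passed an unadjusted p of 0.05, beside 15.1% lower and 10.5% higher of all genes tested. Their median log2 fold change was -0.05. Prpf39, a U1-associated factor, had an RPKM of 122, 98.6 and 270 in the vehicle libraries, so that its place behind Sf3b2 in the vehicle mean rests on vehicle replicate 3. It had 495, 401 and 1096 CPM with vehicle and 1072, 1133 and 304 CPM with E2, so that vehicle replicate 3 matched the highest E2 libraries (log2 fold change 0.41 ± 0.53, SE, adjusted p = 0.667). Prpf18, which acts in the second step of splicing, had 433, 348 and 130 CPM with vehicle and 111, 196 and 308 CPM with E2 (log2 fold change -0.41 ± 0.52, SE, adjusted p = 0.658). Prpf8, the core of the catalytic center, had 58.9, 53.2 and 59.0 CPM with vehicle and 55.6, 40.3 and 84.6 CPM with E2 (log2 fold change 0.27 ± 0.49, SE, adjusted p = 0.776). Prpf31 and Prpf6, tri-snRNP proteins, were too low to be tested. Prpf31 had 14, 14 and 4 counts with vehicle and 1, 2 and 4 with E2, without overlap in CPM, and Prpf6 had 19, 37 and 2 with vehicle and 4, 3 and 6 with E2.

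Of the 41 RBM genes, 37 had a count and 8 were tested, of which 2 were lower and 2 higher at an unadjusted p of 0.05 or less, beside 15.1% and 10.5% of all genes tested. The summed level of the family overlapped between the groups (1415 to 1634 CPM with vehicle, 1293 to 1707 CPM with E2). Rbm24, a splicing regulator of striated muscle, had 114, 122 and 82.5 CPM with vehicle and 23.8, 55.4 and 14.9 CPM with E2, without overlap. A single count is 11.8 CPM in vehicle replicate 3, and the place of Rbm24 in the test came from the vehicle group. The log2 fold change of Rbm24, -1.66 (standard error 0.49), narrowly missed the adjustment (adjusted p = 0.0534 in edgeR's test). Rbm25, a U1-associated protein, had 159, 164 and 106 CPM with vehicle and 31.8, 55.4 and 89.6 CPM with E2, also without overlap (log2 fold change -1.11, adjusted p = 0.148). Rbm5, a splicing regulator of apoptosis genes, had 343, 355 and 82.5 CPM with vehicle and 143, 90.7 and 129 CPM with E2, with vehicle replicate 3 below every E2 library (log2 fold change -1.01 ± 0.51, SE, adjusted p = 0.221). Its relative Rbm10 had 104, 131 and 507 CPM with vehicle and 421, 428 and 249 CPM with E2, with vehicle replicate 3 above every E2 library (log2 fold change 0.77 ± 0.56, SE, adjusted p = 0.402). Rbm18 had 55.4, 44.3 and 94.3 CPM with vehicle and 119, 116 and 105 CPM with E2, without overlap (log2 fold change 1.08 ± 0.45, SE, adjusted p = 0.139). Rbm39, a coactivator of steroid receptors that also acts in splicing, had 12, 19 and 3 counts with vehicle and 0, 4 and 2 with E2 (41.6, 42.1 and 35.4 against 0, 20.2 and 9.95 CPM). It was too low to be tested, and the 3 vehicle libraries were close to each other in CPM.

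Of the 14 listed genes, 7 were tested, all with a log2 fold change below 0 (median -1.34), and 4 of these (Safb, Safb2, Acin1 and Srrm1) were lower at an unadjusted p of 0.05 or less, beside 15.1% of all genes tested. Acin1, of a complex bound to spliced exons, had 388, 408 and 130 CPM with vehicle and 111, 121 and 69.7 CPM with E2 (log2 fold change -1.55 ± 0.49, SE, adjusted p = 0.0672). The groups did not overlap, but vehicle replicate 3 was within 10 CPM of an E2 library. The SR-related matrix proteins Srrm1 and Srrm2 had 180, 175 and 59.0 CPM and 312, 264 and 70.7 CPM with vehicle. With E2 they had 39.7, 80.6 and 34.8 CPM and 47.6, 116 and 129 CPM, with a log2 fold change of -1.37 (adjusted p = 0.0898) and -1.02 (adjusted p = 0.224), and overlapping groups for both. Son, a protein of nuclear speckles, had 62.3, 118 and 47.2 CPM with vehicle and 39.7, 65.5 and 59.7 CPM with E2 (log2 fold change -0.39, adjusted p = 0.634). The RNA helicase Ddx5, a coactivator of the estrogen receptor, had 194, 213 and 295 CPM with vehicle and 159, 217 and 129 CPM with E2 (log2 fold change -0.34 ± 0.43, SE, adjusted p = 0.667), and vehicle replicate 3 was the highest library. Its relative Ddx17 had 4, 16 and 3 counts with vehicle and 5, 7 and 9 with E2.

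The remaining listed genes were too low to be tested. U2af2, which binds the polypyrimidine tract, had 12, 17 and 0 counts with vehicle and 0, 2 and 3 with E2. Its partner U2af1, which reads the end of the intron, had 13, 13 and 3 with vehicle and 2, 0 and 12 with E2, and 53.9% of its transcript windows occur in other genes. The exon activator Tra2b had 7, 9 and 2 counts with vehicle and 1, 0 and 1 with E2, without overlap in CPM, and Tra2a had 2 counts in all. Upf1, the helicase of nonsense-mediated decay, had 18, 18 and 2 counts with vehicle and 4, 2 and 3 with E2. Upf2, which binds it, had 16, 20 and 4 counts with vehicle and 2, 4 and 6 with E2, or 55.4, 44.3 and 47.2 CPM against 15.9, 20.2 and 29.9 CPM. For Upf2 all vehicle libraries were thus at a similar level above the E2 libraries. The 94 genes not tested had a median of 17 counts over all libraries (33 of them under 10, at most 181).

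**Figure D3:**
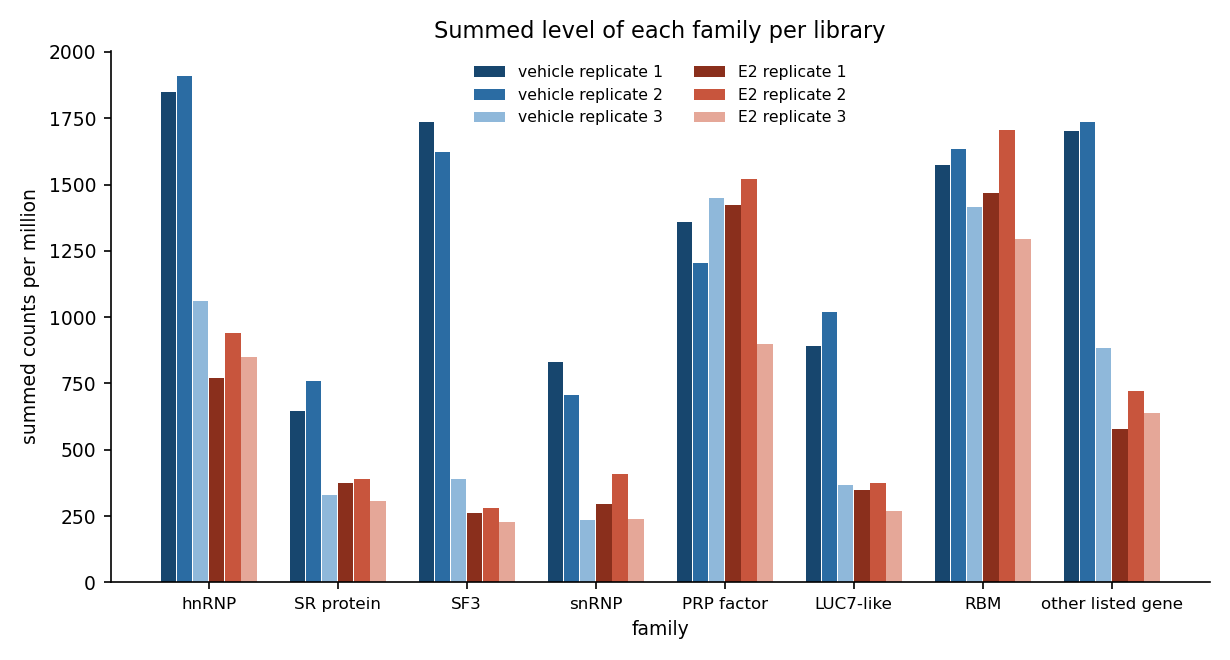
Summed CPM of each family (bars, from 0) in the 3 vehicle (blue) and 3 E2 (red) libraries. Vehicle replicates 1 and 2 exceed every other library for the hnRNP, SR protein, SF3, snRNP and LUC7-like families and the other listed genes, and vehicle replicate 3 (light blue) exceeds all E2 libraries for the hnRNP, SF3 and other listed genes, whereas PRP and RBM genes show no such order.

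All 130 genes together took 1.06%, 1.06% and 0.613% of the counts of the vehicle libraries and 0.552%, 0.634% and 0.473% of those of the E2 libraries, so that vehicle replicate 3 lay within the E2 range. Of the 15 genes lower at an unadjusted p of 0.05 or less, vehicle replicate 3 was the lowest vehicle library for 14, and for 10 it was nearer on the log2 scale to the mean of the E2 libraries than to that of the other vehicle libraries. The other 5 were Hnrnpu, Hnrnph3, Safb2, Rbm25 and Rbm24. All 5 are among the 12 genes whose place in the test came from the vehicle group. For all 3 genes higher at that threshold (Rbm3os, Rbm18 and Srsf9), vehicle replicate 3 was the highest vehicle library and nearer to the E2 libraries.

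Without vehicle replicate 3, 44 of the genes were tested, and 25 of them were lower and 6 were higher after adjustment (p below 0.05), beside 24.3% and 22.1% of all genes then tested. These included Srsf4, Srsf5, Prpf6, Prpf38b, Snrnp27 and Snrnp200 among the lower genes and Snrpa among the higher ones, which were not tested with all libraries. All 36 genes kept their direction. Vehicle replicates 1 and 2, with Y-linked counts, then stood alone against the E2 libraries without any, so that E2 and what sets these libraries apart cannot be told apart. Without vehicle replicates 1 and 2, vehicle replicate 3 was compared with the 3 E2 libraries in the same test, in which the single vehicle library is assumed to vary as the E2 libraries do. Of 33 genes tested, 0 were lower and 1 (Snrpa, at 0 counts in vehicle replicate 3) was higher at an unadjusted p of 0.05 or less, beside 2.88% and 7.08% of all genes, and 0 passed the adjustment. The median log2 fold change was then 0.32, beside 0.11 over all genes. Of the 21 genes below 0 with all libraries that were tested here, 11 stayed below 0. Among the 10 of these that were lower at an unadjusted p with all libraries, 8 stayed below 0, with Rbm24 (-1.29), Hnrnpul2 (-0.97), Rbm25 (-0.66) and Sf3b2 (-0.58) the lowest, and Hnrnpd (2.15) and Luc7l3 (0.34) turned. Safb, Hnrnpu, Hnrnph3 and Srsf11 were too low to be tested in this comparison.

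**Figure D4:**
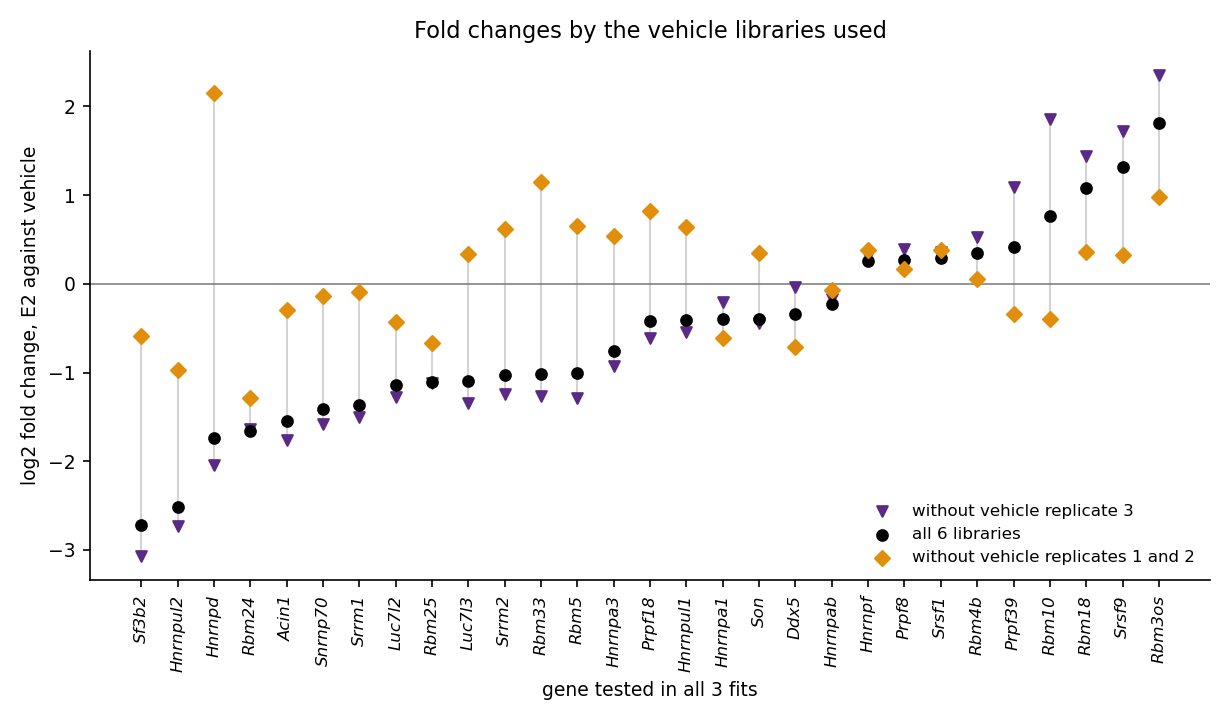
Log2 fold change of E2 against vehicle for 29 of the 30 genes tested in all 3 comparisons, with all 6 libraries (circles), without vehicle replicate 3 (triangles) and without vehicle replicates 1 and 2 (diamonds). For most genes the diamonds lie nearer to 0 or on its other side, for example -0.58 against -2.72 for Sf3b2 and 2.15 against -1.73 for Hnrnpd, while Rbm24 stays at -1.29 or below in all 3.

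Some of these genes share exon sequence with a gene on the other strand, and neither the paper nor the labels say whether reads were counted by strand, so that reads of such partners cannot be told apart. In GENCODE, 37 of the 129 genes annotated there shared at least 50 exon bases with an opposite-strand gene. For 22 of them such a partner was in the table, and for 11 the partner had more counts than the gene itself. Hnrnpk, a poly(C)-binding hnRNP, had 33 counts in all, whereas Rmi1, with 330 shared bases, had 3399. Rbm3 had 11 counts, whereas Rbm3os, with 94 shared bases, had 266. Srsf4 had 93 counts, whereas Gm12992, with 1532 shared bases, had 1608 (log2 fold change -0.21). Hnrnph3 shared 115 bases with Rufy2 (573 counts, log2 fold change 0.10), and Hnrnpu shared 804 with Cox20 (205 counts, log2 fold change -0.16), so neither partner had a fold change near that of the gene. Rbm18 shared 385 bases with Mrrf, which rose with E2 (17.3, 35.5 and 47.2 CPM with vehicle, 103, 101 and 119 CPM with E2, log2 fold change 1.97, adjusted p = 0.0318 in edgeR's test). Snrpa shared 327 bases with BC024978 (log2 fold change 1.19, adjusted p = 0.140). The median log2 fold change was -0.31 over the 16 tested genes with such an overlap and -1.01 over the 20 without. Over all genes tested that GENCODE holds under the same symbol, it was 0.28 with an overlap (763 genes) and -0.29 without (846 genes). Whether the overlap has a part in these values was not tested.

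**Figure D5:**
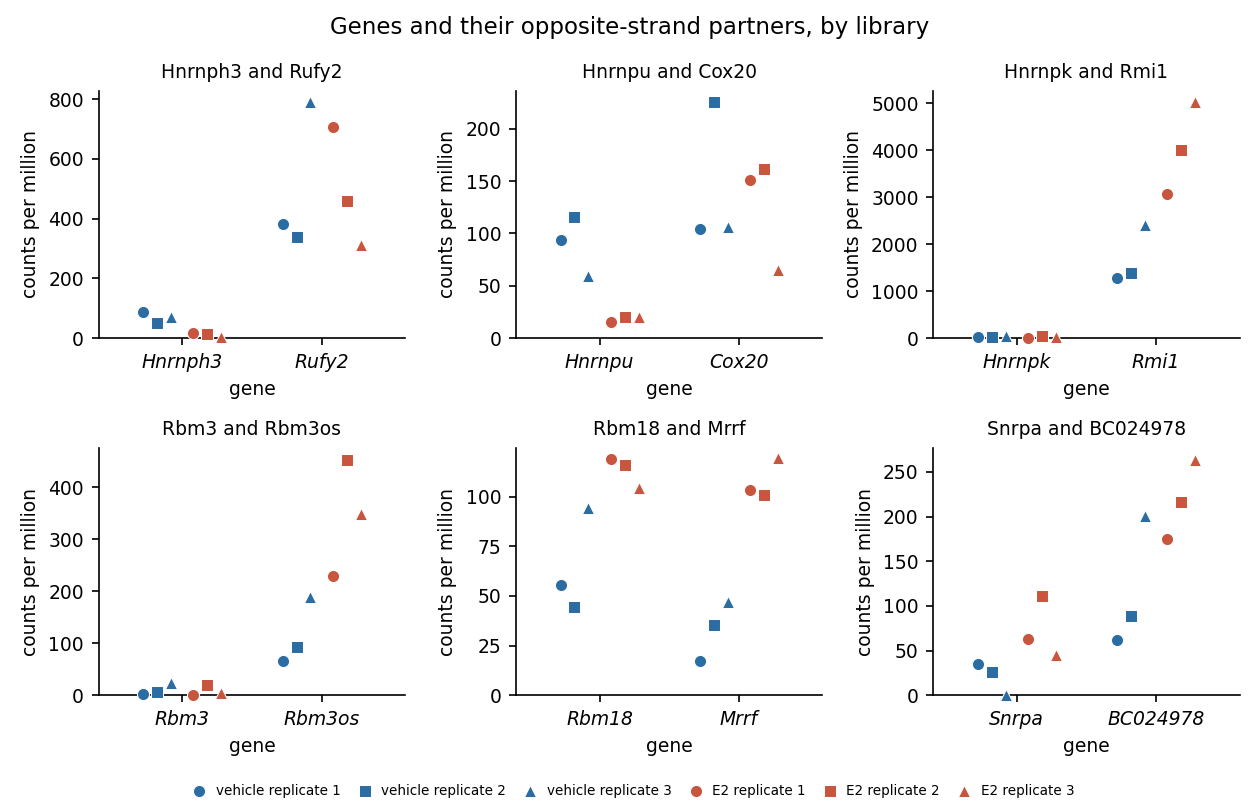
Level in CPM (from 0, with a separate scale in each panel) of 6 genes and of the gene on the opposite strand whose exons overlap theirs, in the 3 vehicle (blue) and 3 E2 (red) libraries. Rufy2, Rmi1 and Rbm3os exceed their partners Hnrnph3, Hnrnpk and Rbm3 in every library, and Rbm18 and Mrrf are both higher in each E2 library than in each vehicle library.

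Other genes of RNA processing were taken from 7 lists that hold none of the genes above: SR kinases, spliceosomal helicases, LSm proteins, other spliceosome proteins, the exon junction complex and nonsense-mediated decay, cleavage and polyadenylation, and other nuclear RNA-binding proteins. Of 158 genes listed, 28 were tested, and 12 were lower and 1 higher at an unadjusted p of 0.05 or less, beside 15.1% and 10.5% of all genes tested, with 25 log2 fold changes below 0 and a median of -0.78. By list, 0 of 1 SR kinase tested was lower, 2 of 3 helicases, 5 of 7 other spliceosome proteins, 1 of 2 of the exon junction list, 1 of 4 of cleavage and polyadenylation and 3 of 11 of the other nuclear RNA-binding proteins, and no LSm gene was tested. At an adjusted p below 0.05, 3 were lower and 0 higher, beside 2.97% and 2.5% of all genes tested. Zcrb1, a protein of the minor spliceosome, had 8991, 9702 and 967 CPM with vehicle and 1453, 1466 and 189 CPM with E2, with overlapping groups (log2 fold change -2.59 ± 0.72, SE, adjusted p = 0.0441 in edgeR's test). Pabpn1, the nuclear poly(A)-binding protein, had 287, 317 and 35.4 CPM with vehicle and 15.9, 55.4 and 24.9 CPM with E2, with overlapping groups (log2 fold change -2.63, adjusted p = 0.0267). Qk, an RNA-binding regulator of splicing, had 211, 153 and 106 CPM with vehicle and 47.6, 45.3 and 24.9 CPM with E2, without overlap (log2 fold change -1.94, adjusted p = 0.0318 in edgeR's test). All vehicle libraries and no E2 library of Qk reached the 50.1 CPM of the filter, so its observed level had to be lower with E2. Mbnl1, a splicing regulator of muscle, was the gene higher at an unadjusted p, with 218, 326 and 142 CPM with vehicle and 524, 610 and 751 CPM with E2 (log2 fold change 1.59, adjusted p = 0.0521). The nuclear RNA Malat1, which is not translated, had 1392, 1696 and 590 CPM with vehicle and 500, 610 and 587 CPM with E2 (log2 fold change -0.97, adjusted p = 0.203 in edgeR's test). It is 1 of 6 nuclear RNAs listed, which summed to 1707, 2057 and 1238 CPM with vehicle and 945, 1123 and 801 CPM with E2, without overlap. Among these, Neat1 and Kcnq1ot1 had log2 fold changes of -0.12 and -0.21, and Xist, not tested, was higher in each E2 library than in each vehicle library. For Zcrb1, Pabpn1 and Malat1, vehicle replicate 3 lay within the range of the E2 libraries, whereas for Qk it lay above all of them. The part of nuclear RNA in these values was not tested.

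Compared per transcript length, the genes differed widely in level. With vehicle the mean was between 7.66 (Prpf8) and 343 (Sf3b2) RPKM, and with E2 between 2.44 (Hnrnpu) and 410 (Rbm3os). Prpf39 followed Sf3b2 with vehicle at 163 ± 92.7 (SD, n = 3), before Rbm3os at 138 ± 76.9 and Snrnp70 at 129 ± 64.3, which do not differ from each other beyond their spread. With E2, Rbm3os at 410 ± 133 was followed by Prpf39 at 206 ± 114 and Rbm10 at 99.0 ± 27.5. The order with vehicle rests on single libraries for some genes, such as Prpf39 above, and on vehicle replicates 1 and 2 for others: Safb had an RPKM of 75.4, 88.8 and 18.9 in the vehicle libraries and Hnrnpul2 of 73.7, 66.3 and 18.4. Hnrnpu was near the end in both groups (position 33 with vehicle and 36 with E2).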

How the data were processed

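TRAPseq counts of 6 libraries, 3 vehicle and 3 E2, were used, grouped by the sample labels. Per the submitters' processing notes, reads were demultiplexed with bcl2fastq (2.17), checked with FastQC (0.11.2), mapped to mm10 with STAR (2.5.3a) and counted with featureCounts of Subread (1.6.0). The authors deposited whole-number counts per gene symbol without normalization. Whether reads were counted by strand is not given in the sources used, and the kit is a stranded total RNA kit in the labels and a ribosome profiling kit in the paper.

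From these counts, genes were filtered with filterByExpr (1682 kept), library sizes were taken over the genes kept, and E2 was compared with vehicle by TMM scaling and the quasi-likelihood test of edgeR (4.0.16) in R (4.3.3), with Benjamini-Hochberg adjustment over all genes tested. CPM refer to all counts in a library. No pair of libraries agreed within sampling noise (chi-square of their counts per degree of freedom, at least 3.71). Totals per library ranged from 84823 to 451034, so that low genes are measured with large counting error, and Poisson intervals (95%) cover counting error only. The study gives 6 mice per group and the labels name other mice for each library, so the library was taken as the replicate. With 3 libraries against 3, an exact permutation test cannot give a p below 0.1, and none is reported. The members and all lists were chosen with earlier results of these data known. Genes were named if called at the adjusted p, if higher at an unadjusted p of 0.05 or less, if among the 3 with the highest summed CPM of a family, if listed by symbol in the rule, or if the study's text names them. Other tested or non-overlapping genes (Hnrnpd, Rbm24, Rbm25, Prpf8, Srsf4, Srsf5, Prpf38b, Hnrnpk and Rbm3) and genes of the other lists were chosen after seeing their values. The results were recomputed under 16 alternatives, with limma (3.58.1) for voom and DESeq2 (1.42.0). Exon overlaps were found with bedtools (2.31.1) in GENCODE M21, whose exons may differ from those the authors counted on, and promoter windows are from RefSeq (GRCm38.p6). The values of 1 gene tested are not reported here. RPKM use the longest coding or, without a coding one, the longest transcript.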

Additional observations from a re-analysis of the deposited data

How the results depend on the processing

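The numbers of lower and higher genes at an adjusted p below 0.05 (6 and 1) and at the unadjusted p of 0.05 or less (15 and 3) moved with the processing. Without the filter on low counts, which left 123 of the genes among 14057, 8 were lower and 0 higher at the adjusted p, beside 132 and 31 of all genes tested, and 32 lower at the unadjusted p, beside 957. With at least 10 counts in every library, which left 11 of the genes, among 578 in all, there were 0 and 0 at the adjusted p, beside 0 and 11 of all genes tested, and 4 and 1 at the unadjusted p, beside 89 and 69. The fits with other tests, with library totals only and with the block held 1682 genes, of which the quasi-likelihood test called 50 lower and 42 higher at the adjusted p and 254 and 177 at the unadjusted p. With edgeR's likelihood ratio test 12 were lower and 2 higher at the adjusted p, beside 152 and 105 of all genes tested, and with limma-voom 1 was lower (Sf3b2) and 1 higher (Rbm3os), beside 9 and 63. Scaling by library totals only shifted the median log2 fold change of all genes to -0.16, and 8 were then lower and 0 higher at the adjusted p, beside 90 and 33 of all genes tested, and 1 higher at the unadjusted p, beside 122. DESeq2 gave 1 higher at the unadjusted p, beside 136 of all genes tested, and 6 lower at the adjusted p, beside 53, that include Acin1 and not Hnrnph3, for which it gave no adjusted p. With Rn45s left out, Hnrnph3 was not tested and 5 were lower at the adjusted p, beside 50 of 1639 genes. With each library left out in turn, between 0 and 25 were lower and between 0 and 6 higher at the adjusted p, between 11 and 25 lower and between 1 and 6 higher at the unadjusted p, and the highest of each was without vehicle replicate 3, where 526 of all 2162 genes tested were lower and 477 higher at the adjusted p and 597 and 560 at the unadjusted p. Without both vehicle libraries with Y-linked counts the 4 numbers were 0, 0, 0 and 1, beside 1, 6, 55 and 135 of 1907 genes, and the median log2 fold change of the genes tested reversed from -0.88 to 0.32. In this comparison the log2 fold change also reversed for Prpf39 (-0.35), Prpf18 (0.82), Luc7l3 (0.34), Rbm10 (-0.39), Rbm5 (0.65), Srrm2 (0.62) and Son (0.35). The cause was not tested. With the replicate number as a block (replicate block), 0 were lower and 0 higher at the adjusted p, beside 1 and 7 of all genes tested, and 13 lower and 2 higher at the unadjusted p, beside 170 and 129. The deviations of same-numbered libraries correlated at -0.13, 0.02 and -0.19 over the genes tested, so the libraries share only a number. Over the named genes and the alternatives in which each was tested, 304 of the values kept their direction and side of the threshold, 49 lost and 19 gained the adjusted threshold, and 7 reversed. The depth of vehicle replicate 3 limits all comparisons of low genes.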
